A study of Mus musculus with 6 samples.

Results

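The genes described here are 7 whose products are not known mainly from T cells: Itih5, Napsa, Adh1, Ddc, Osbpl5, Penk and Scin. They were selected on their array signals, as genes measured higher in 1 or both of the CD8aa subsets of intraepithelial lymphocytes. The selection does not name the subset they were set against, and it was read here as the CD8ab subset. All probe sets with the symbol of a member were taken, which gave 11 of 12488 probe sets, or 7 of 8251 named genes. Since these same signals chose the members, the differences of the members from the CD8ab subset are given as a description with no test. On that reading the values matched the choice for 5 genes (Itih5, Napsa, Adh1, Ddc and Osbpl5) and went against it for 2. Penk was lower in both CD8aa subsets than in the CD8ab subset, and Scin was lower in 1 of them and near the CD8ab level in the other.

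Intraepithelial lymphocytes are T cells that sit between the epithelial cells of the gut lining. Messenger RNA was measured on 6 Affymetrix arrays, 2 for each of 3 subsets sorted from the small intestine of untreated C57BL/6 mice under 8 weeks of age. The subsets were TCRgd CD8aa, TCRab CD8aa and TCRab CD8ab, named by their T cell receptor and by the form of the CD8 coreceptor. In each of 2 experiments the cells of 20 mice were pooled and all 3 subsets were sorted from that pool, so an array stands for a pool and not for a mouse, and differences between single mice were not measured. The titles of the TCRgd samples write TCRgb, and their source descriptions were followed.

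The 7 genes have roles that are textbook knowledge in other tissues. Alcohol dehydrogenase and aromatic amino acid decarboxylase are best known from liver, gut, kidney and nerve cells, where they oxidise alcohols and retinol or make dopamine and serotonin. Proenkephalin is the precursor of the enkephalins, opioid peptides of nerve and endocrine cells, and T cells can make it too. The heavy chains of the inter-alpha-trypsin inhibitor family are secreted and bind hyaluronan in the extracellular matrix. Of the others, napsin A is an aspartic protease of lysosomes and secretory granules, the product of Osbpl5 moves lipids between membranes, and scinderin severs actin filaments inside the cell.

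Of 5 sort markers, 2 bear on the CD8 form. Cd8b1, the CD8 beta chain, had signals of 28.1 and 763 in TCRgd CD8aa and 29.5 and 182 in TCRab CD8aa, against 17647 and 27590 in TCRab CD8ab (experiments 1 and 2). Cd3e, a chain of the T cell receptor complex, had signals between 1343 and 3397 on all 6 arrays, and Cd8a between 6609 and 17415. The other 3 are receptor genes. The gamma chain gene Trgv4 had 35231 and 19622 in TCRgd CD8aa and 8289 and 6261 in TCRab CD8aa, against 3015 and 1714 in TCRab CD8ab. The alpha chain gene Trav9d-3 had 4989 and 2594 in TCRgd CD8aa, 14626 and 8360 in TCRab CD8aa, and 12268 and 12578 in TCRab CD8ab. The beta chain gene Trbv13-2 had 315.9 and 69.9, 965.7 and 192.4, and 1227 and 826.6 in the same order of subsets. Within each experiment Trgv4 was highest, and the alpha and beta chain genes lowest, in the subset labelled TCRgd, and none of the 3 was at the floor in any subset. Median signals of the arrays were 83.4 to 113.4. Beta-actin controls near the 3′ end were 1.41 to 1.76 times as bright as those near the 5′ end on the arrays of experiment 1, and 40.4 to 52.2 times on those of experiment 2, a measure of RNA or label integrity that separated the experiments and not the subsets.

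The TCRgd CD8aa array of experiment 2 stood apart by markers of other gut cells. The summed signal of 31 enterocyte and epithelial markers was 15861 and 49956 in TCRgd CD8aa and 20311 and 7635 in TCRab CD8aa, against 11975 and 8399 in TCRab CD8ab. Of these 31 markers, 24 were highest on that array, and none lay at the floor there (the floor is signal 15.3, to which lower values were set). Fabp1, a fatty acid carrier of enterocytes, had 206.1 and 5134 in TCRgd CD8aa, 417.9 and 136.4 in TCRab CD8aa, and 491.8 and 170.7 in TCRab CD8ab. Vil1, the villin of the brush border, had 27.9 and 1953 in TCRgd CD8aa, 59.2 and 17 in TCRab CD8aa, and 60.5 and 52.8 in TCRab CD8ab. The sums of 16 enteroendocrine markers were 885 and 14212 in TCRgd CD8aa, 1199 and 920 in TCRab CD8aa, and 1136 and 1832 in TCRab CD8ab. Those of 8 goblet and Paneth cell markers were 649 and 7932, 846 and 500, and 755 and 834 in the same order of subsets. The members' signals in TCRgd CD8aa are therefore given by experiment, and experiment 1 is free of this array. Means over both experiments, for members, other genes and gene lists, include it unless stated.

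**Figure D1:**
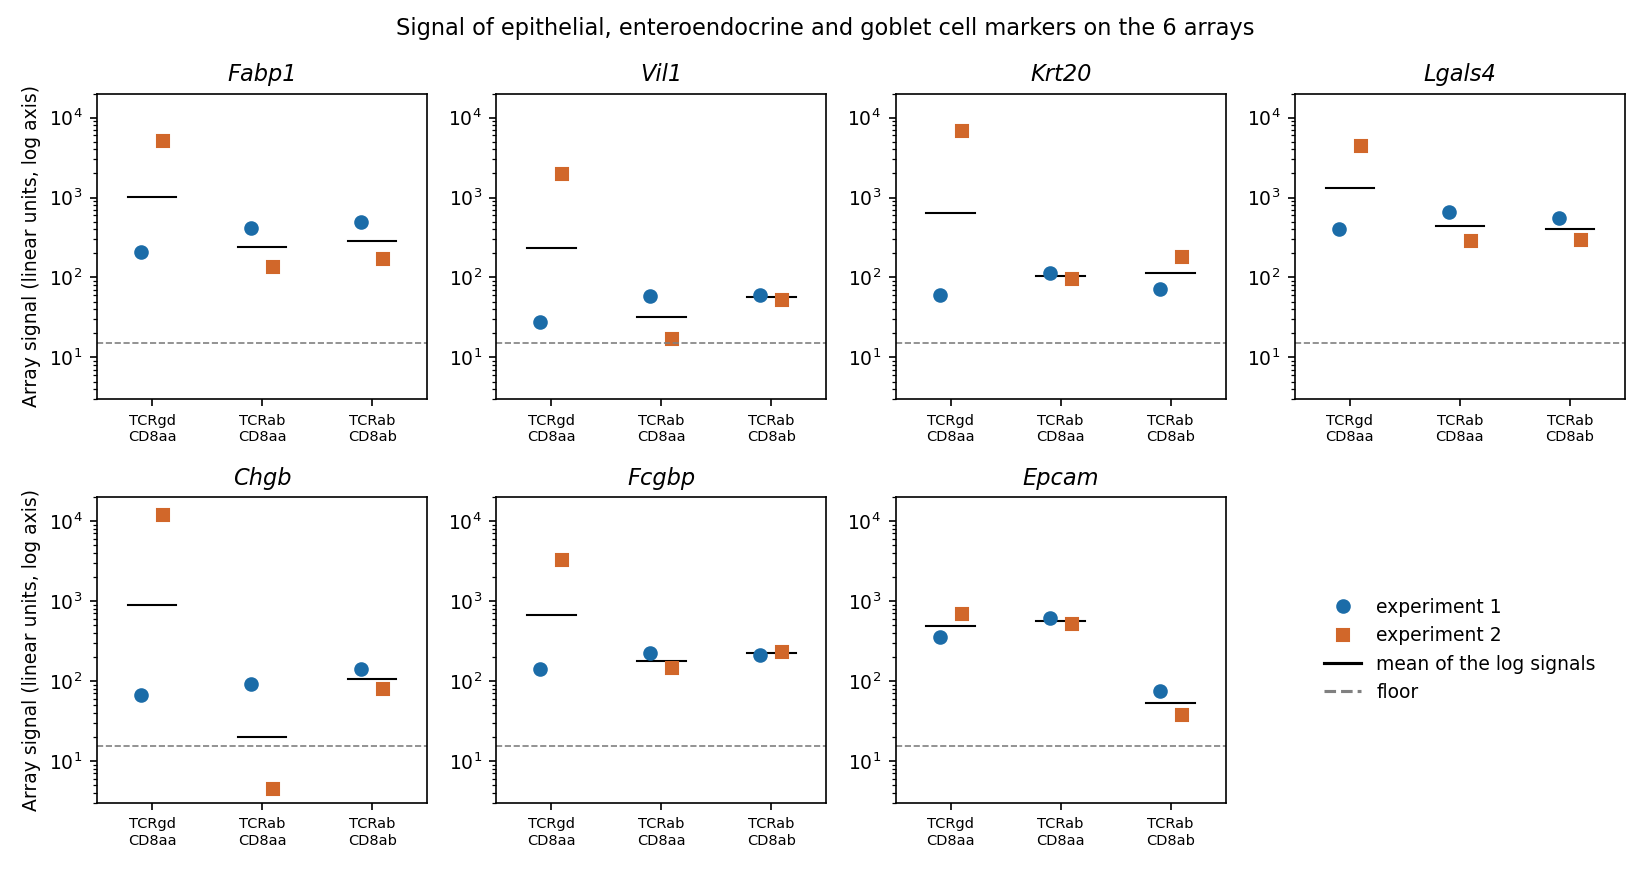
Signal (linear units on a log axis) of 7 markers of epithelial, enteroendocrine and goblet cells by subset. Circles are experiment 1, squares experiment 2, bars the mean of the log signals, and the dashed line is the floor of 15.3. Fabp1, Vil1, Krt20, Lgals4, Chgb and Fcgbp peak on the TCRgd CD8aa array of experiment 2, while Epcam is high on all 4 CD8aa arrays.

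Values for members are signals of the brightest probe set of the gene, in the order experiment 1 and then experiment 2. Differences are in log2 signal, and their standard errors (SE) come from the blocked limma fit, which has a term for the experiment, and are pooled over the 3 subsets. Of 7 members, 5 had both arrays of both CD8aa subsets above both TCRab CD8ab arrays, as did 5.34% of all 8299 tested probe sets. A further member, Penk, had them all below, as did 6.17% of tested probe sets. Both comparisons share the TCRab CD8ab arrays, and the choice of members used them. In bulk RNA, a lower signal from fewer expressing cells cannot be told apart from less RNA per cell.

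Itih5 encodes a secreted heavy chain of the inter-alpha-trypsin inhibitor family. Its signal was 2082 and 1881 in TCRgd CD8aa and 1808 and 2615 in TCRab CD8aa, against 81.1 and 95.8 in TCRab CD8ab. The 4 CD8aa arrays lay close together and far above both CD8ab arrays. On the log2 scale the means were 10.95 ± 0.10, 11.09 ± 0.38 and 6.46 ± 0.17 (SD, n = 2 each) in the same order. The difference from TCRab CD8ab was 4.49 ± 0.33 in TCRgd CD8aa, or 22.4-fold, and 4.63 ± 0.33 in TCRab CD8aa, or 24.7-fold (SE, n = 2). It was the largest difference among the 5 genes in both comparisons. It was also the steadiest of the 5 between experiments in TCRab CD8aa, with 22.3-fold in experiment 1 and 27.3-fold in experiment 2. A second Itih5 probe set lay under the floor on all 6 arrays and gave no difference.

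The RefSeq promoter of Itih5, at chr2:10153293-10153592 (GRCm38.p6, plus strand), is shown because this gene had the largest difference and the window holds a repeated motif. Windows run from 250 bases before to 50 after the start. The capitals mark the GC box GGGCGG, at positions -124, -10 and 7 from the start site.
Itih5: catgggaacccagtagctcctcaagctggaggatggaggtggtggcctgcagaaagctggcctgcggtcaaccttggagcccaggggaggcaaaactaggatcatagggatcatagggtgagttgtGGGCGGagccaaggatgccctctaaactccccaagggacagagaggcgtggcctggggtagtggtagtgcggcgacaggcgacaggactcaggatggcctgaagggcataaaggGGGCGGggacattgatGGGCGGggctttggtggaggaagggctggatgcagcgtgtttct
On either strand, the GC box is in 35.7% of the 32851 windows of this length in the table, so its presence is common. None of the other motifs searched (the TATA box TATAAA, the RUNX motif TGTGGT, the nuclear receptor half-site AGGTCA, the AP-1 motif TGANTCA and the E-box CANNTG) was found in these letters.

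Napsa encodes napsin A, an aspartic protease. Its signal was 2155 and 1159 in TCRgd CD8aa and 1905 and 1306 in TCRab CD8aa, against 116.9 and 232.7 in TCRab CD8ab. Both CD8aa subsets were lower in experiment 2 than in experiment 1 and the CD8ab subset was higher, so the gap narrowed. TCRgd CD8aa exceeded TCRab CD8ab 18.4-fold in experiment 1 and 4.98-fold in experiment 2, and TCRab CD8aa exceeded it 16.3-fold and 5.62-fold. The means over both experiments were 3.26 ± 0.45 in TCRgd CD8aa and 3.26 ± 0.45 in TCRab CD8aa (SE, n = 2).

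Adh1 encodes a class I alcohol dehydrogenase, which oxidises ethanol and also retinol. Its signal was 2947 and 1258 in TCRgd CD8aa and 4217 and 972.4 in TCRab CD8aa, against 321.5 and 128.8 in TCRab CD8ab. Every subset had less signal in experiment 2, yet within each experiment the 2 CD8aa arrays were far above the CD8ab array. The difference from TCRab CD8ab was 3.20 in experiment 1 and 3.29 in experiment 2 for TCRgd CD8aa, against 3.71 and 2.92 for TCRab CD8aa. The means were 3.24 ± 0.34 for TCRgd CD8aa and 3.32 ± 0.34 for TCRab CD8aa (SE, n = 2), or 9.46-fold and 9.95-fold. On the TCRgd CD8aa array rich in epithelial markers, Adh1 was lower than on the other array of that subset, as in every subset. Within experiment 2, however, that array had the highest Adh1 signal. The difference of TCRgd CD8aa from TCRab CD8aa was -0.517 in experiment 1 and 0.371 in experiment 2. The part of epithelial RNA in the Adh1 signal was not tested.

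The Adh1 window, at chr3:138277335-138277634 (GRCm38.p6, plus strand), is shown beside that of Itih5 because both genes differed in the same direction and their windows share none of the motifs searched. Capitals mark the E-box CANNTG, which reads the same on both strands, at -191, 5 and 17.
Adh1: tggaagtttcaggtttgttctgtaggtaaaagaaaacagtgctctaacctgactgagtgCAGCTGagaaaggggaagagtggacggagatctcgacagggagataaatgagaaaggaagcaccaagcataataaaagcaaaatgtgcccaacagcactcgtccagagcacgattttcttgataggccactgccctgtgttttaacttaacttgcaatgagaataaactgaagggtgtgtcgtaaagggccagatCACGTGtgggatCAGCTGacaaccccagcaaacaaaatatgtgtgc
The E-box is in 72.3% of all windows. The GC content was 45.3% in this window and 60.7% in that of Itih5, against a median of 52.7% over all windows.

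Ddc encodes aromatic L-amino acid decarboxylase, which makes dopamine and serotonin from their amino acid precursors. Its signal was 3516 and 4417 in TCRgd CD8aa and 2596 and 4337 in TCRab CD8aa, against 842.8 and 535.4 in TCRab CD8ab. Signal in the CD8ab subset was itself well above the floor, and the ratio was the smallest of the 5 genes in TCRab CD8aa. TCRgd CD8aa exceeded TCRab CD8ab 4.17-fold in experiment 1 and 8.25-fold in experiment 2, and TCRab CD8aa exceeded it 3.08-fold and 8.10-fold. The means were 2.55 ± 0.37 and 2.32 ± 0.37 (SE, n = 2). The TCRgd CD8aa array rich in epithelial markers had the highest Ddc signal (4417), beside 4337 in TCRab CD8aa of the same experiment. The part of epithelial RNA in the Ddc signal was not tested. RefSeq gave 2 windows for Ddc. In 1 of them the letters searched for the TATA box (TTTATA at -68) and the nuclear receptor half-site (TGACCT at -73) were on the reverse strand. That window also holds the AP-1 letters as TGAATCA at -129. On either strand these motifs are present in 13.6%, 16.3% and 7.8% of all windows.

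Osbpl5 encodes an oxysterol-binding protein-like protein that exchanges lipids between the endoplasmic reticulum and the plasma membrane. Its signal was 1531 and 6895 in TCRgd CD8aa and 2328 and 9024 in TCRab CD8aa, against 481.7 and 744.2 in TCRab CD8ab. All 3 subsets had more signal in experiment 2, and the CD8aa subsets gained the most. TCRgd CD8aa exceeded TCRab CD8ab 3.18-fold in experiment 1 and 9.27-fold in experiment 2, and TCRab CD8aa exceeded it 4.83-fold and 12.1-fold. The means were 2.44 ± 0.39 and 2.94 ± 0.39 (SE, n = 2). RefSeq gave 3 windows for Osbpl5. The E-box is in all 3 of them and in 72.3% of all windows. The RUNX motif is in 2 of them and in 16.8% of all windows. The GC box is in the other and in 35.7% of all windows. These shares are for single windows and not for genes with several.

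**Figure D2:**
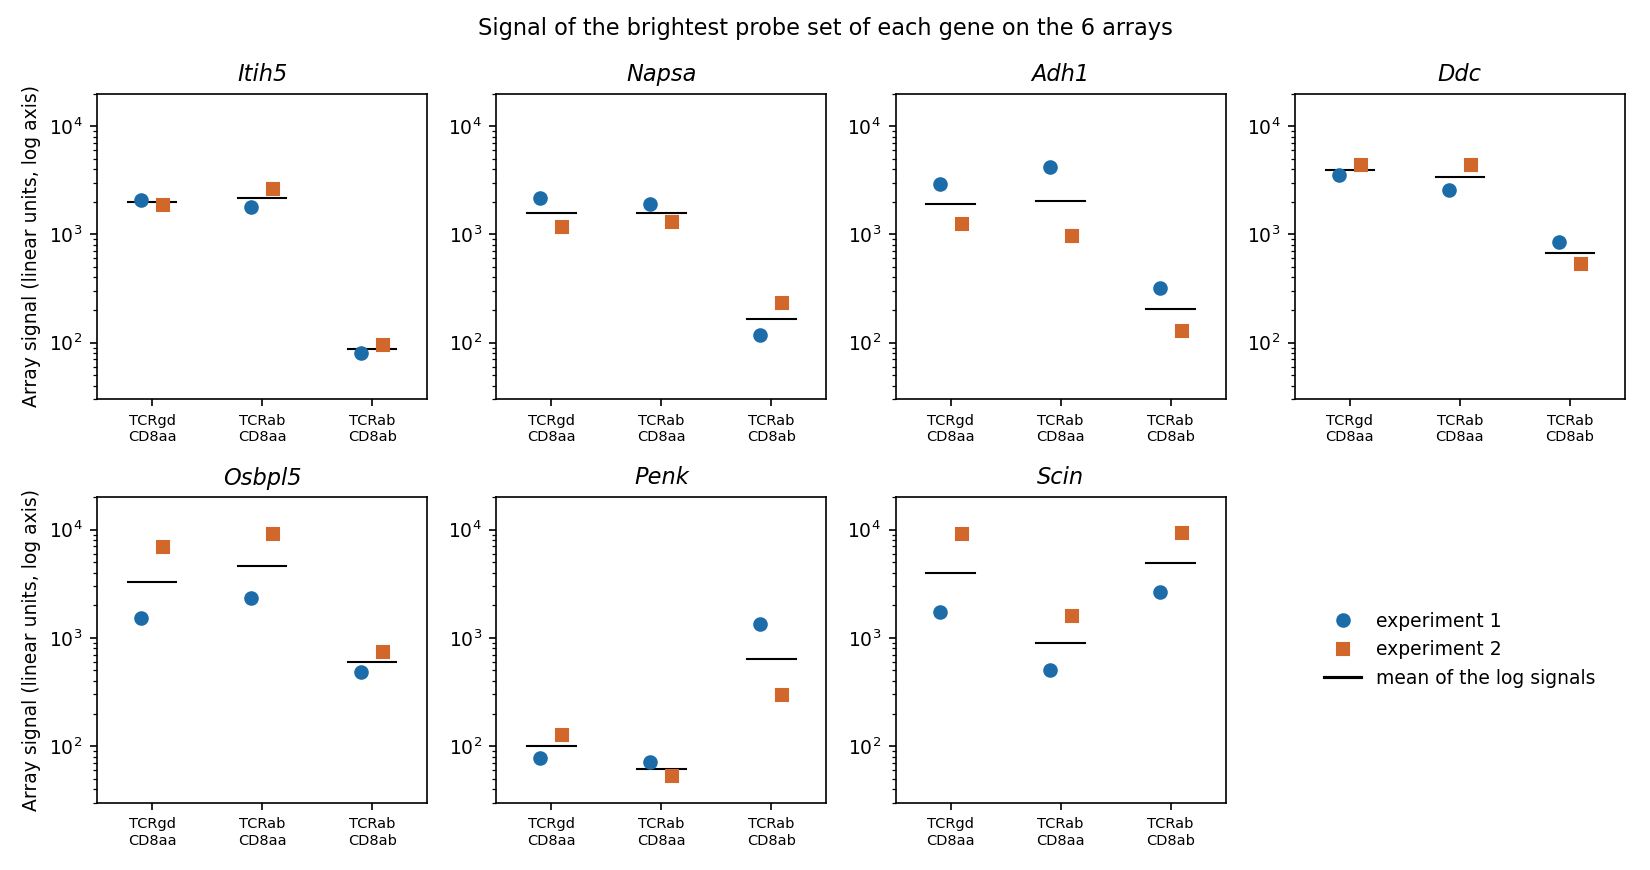
Signal (linear units on a log axis) of the brightest probe set of each of the 7 genes by subset, with TCRgd CD8aa and TCRab CD8aa left of TCRab CD8ab. Circles are experiment 1, squares experiment 2, and bars the mean of the log signals. The first 5 genes are higher on all 4 CD8aa arrays than on both TCRab CD8ab arrays, Penk is lower on all 4, and Scin is low in TCRab CD8aa alone.

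Penk encodes proenkephalin, the precursor of Met- and Leu-enkephalin. Its brightest probe set had signals of 77.9 and 127.0 in TCRgd CD8aa and 71.7 and 53.4 in TCRab CD8aa, against 1357 and 298.9 in TCRab CD8ab. The CD8ab subset was the high one, and its 2 arrays differed more from each other than those of either CD8aa subset. In experiment 1 the log2 difference was -4.12 for TCRgd CD8aa and -4.24 for TCRab CD8aa, both against TCRab CD8ab, and in experiment 2 it was -1.24 and -2.49. The means were -2.68 ± 0.64 and -3.36 ± 0.64 (SE, n = 2), or 6.40-fold and 10.3-fold lower. A second, dim probe set had 80.3 and 83.5 in TCRgd CD8aa, 10.4 and 17.0 in TCRab CD8aa, and 93.8 and 146.8 in TCRab CD8ab. It too was highest in TCRab CD8ab, but in TCRgd CD8aa it was only slightly lower (-0.52 ± 0.65), so the 2 probe sets disagreed on the size of that difference. Another Penk probe set was under the filter on dim probe sets (2 arrays or more above signal 56.4), at 1.8 to 26.6 on all arrays.

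Scin encodes scinderin, also named adseverin, a calcium-dependent protein of the gelsolin family that severs and caps actin filaments. Its signal was 1727 and 9040 in TCRgd CD8aa and 507.4 and 1576 in TCRab CD8aa, against 2629 and 9361 in TCRab CD8ab. TCRab CD8aa was the low subset in both experiments, and the other two lay close together. The difference from TCRab CD8ab was -0.33 ± 0.30 for TCRgd CD8aa and -2.47 ± 0.30 for TCRab CD8aa (SE, n = 2). The second of these was alike in both experiments, 5.18-fold lower in experiment 1 and 5.94-fold lower in experiment 2. A second Scin probe set lay under the filter, at 3.1 to 51.0. In experiment 2 Scin was at 9040 in TCRgd CD8aa and 9361 in TCRab CD8ab, while the epithelial marker Vil1 was at 1953 and 52.8. From experiment 1 to experiment 2 the log2 signal of Scin rose by 2.388 in TCRgd CD8aa, 1.635 in TCRab CD8aa and 1.832 in TCRab CD8ab. The part of epithelial RNA in the Scin signal was not tested.

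The Scin window, at chr12:40134179-40134478 (GRCm38.p6, minus strand), is shown because this gene alone of the 5 with a window was not higher in the CD8aa subsets. Capitals mark the GC box on its reverse strand, at -189 and -49.
Scin: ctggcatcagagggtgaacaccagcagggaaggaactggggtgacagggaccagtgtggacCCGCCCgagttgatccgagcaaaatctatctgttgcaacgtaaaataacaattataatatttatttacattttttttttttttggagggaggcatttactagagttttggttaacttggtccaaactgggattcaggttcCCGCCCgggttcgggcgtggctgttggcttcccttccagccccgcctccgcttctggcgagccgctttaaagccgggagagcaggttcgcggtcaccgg
The same motif is in the window of Itih5, whose signals had another pattern, and the GC content was 52%. RefSeq windows were found for 5 members, with 8 windows in all.

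The 2 CD8aa subsets share their CD8 form and differ in receptor. Their comparison uses the CD8aa arrays on which the members were chosen, and it may have been part of that choice. The tests and counts of members in this comparison cannot be taken as independent of the choice. Among the brightest probe sets of the members, Scin had the largest difference. TCRgd CD8aa exceeded TCRab CD8aa 3.40-fold in experiment 1 and 5.74-fold in experiment 2, a mean of 2.14 ± 0.30 (SE, n = 2; 95% interval 1.46 to 2.83 with the block). Its adjusted p in limma (Benjamini-Hochberg over 8299 probe sets) was 1 without the block and 0.111 with it, so the call was not made in either fit. Without the TCRgd CD8aa array of experiment 1 the blocked fit gave 2.47 with adjusted p = 0.000146 on 1 residual degree of freedom, and without that of experiment 2 it gave 1.82 with adjusted p = 0.289. Over all alternatives the adjusted p was 0.000146 to 1.

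For the 5 genes that were high in the CD8aa subsets, TCRgd CD8aa and TCRab CD8aa differed by -0.50 to 0.23. The 95% intervals were -0.87 to 0.60 for Itih5, -1.01 to 1.02 for Napsa, -0.83 to 0.69 for Adh1, -0.59 to 1.06 for Ddc and -1.38 to 0.39 for Osbpl5, which leaves room for differences of about the size of 1 log2 unit. Osbpl5 was lower in TCRgd CD8aa in both experiments (0.658 and 0.764 times the TCRab CD8aa signal), and Ddc was higher in both (1.35-fold and 1.02-fold). The sign turned between experiments for Itih5, Napsa and Adh1. Penk was 0.69 ± 0.64 higher in TCRgd CD8aa (95% interval -0.77 to 2.14), and its dim probe set 2.34 ± 0.65 higher. None of these passed limma in either fit (adjusted p of 0.9999 with the block and 1 without it). Over all probe sets, 0.0241% were called with the block (2 of 8299), and 0 without it, where 34 had an unadjusted p under 0.05. TCRgd CD8aa lay above TCRab CD8aa with no overlap for 2 of 7 members, Penk and Scin, and for 7.78% of tested probe sets. For the brightest Penk probe set the difference was 0.12 in experiment 1 and 1.25 in experiment 2. Without the TCRgd CD8aa array of experiment 2, the one rich in epithelial markers, the blocked fit gave -0.32 for this probe set. The dim Penk probe set differed by 2.39 in experiment 1 and 2.30 in experiment 2.

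**Figure D3:**
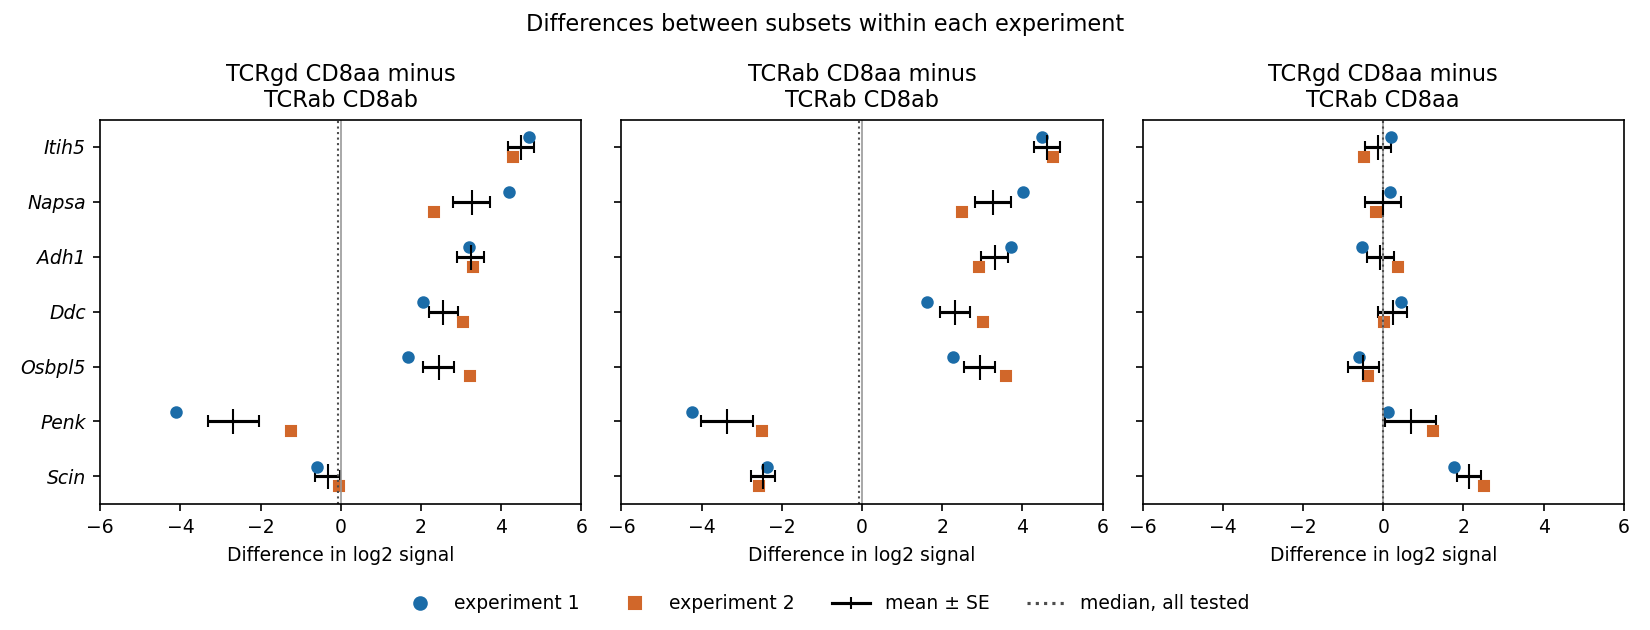
Differences in log2 signal between subsets for the 7 genes, 1 panel per comparison. Circles are experiment 1, squares experiment 2, black bars the mean with its SE, and the dotted line the median of all tested probe sets (-0.06, -0.08 and 0.00 from left to right). The first 5 genes lie right of 0 against TCRab CD8ab and near 0 in the comparison of the CD8aa subsets, where Scin lies at 1.77 and 2.52.

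The differences from TCRab CD8ab had the same sign in both experiments for all 7 members in both comparisons. Over all tested probe sets the sign was the same for 51.5% in TCRgd CD8aa and 53% in TCRab CD8aa. The choice of members used both experiments, so this is a description. Among the 5 genes that were higher, the smallest difference within any 1 experiment was 1.67 in TCRgd CD8aa and 1.62 in TCRab CD8aa, both in experiment 1 (Osbpl5 and Ddc). Experiment 1, in which the TCRgd CD8aa array was not rich in epithelial markers, gave 3.18-fold to 25.7-fold for TCRgd CD8aa against TCRab CD8ab, and experiment 2 gave 4.98-fold to 19.6-fold. Without the TCRgd CD8aa array of experiment 2, the blocked fit gave differences from TCRab CD8ab of 4.76 for Itih5, 3.82 for Napsa, 3.0 for Adh1, 2.41 for Ddc and 2.0 for Osbpl5, -3.68 for Penk and -0.66 for Scin.

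**Figure D4:**
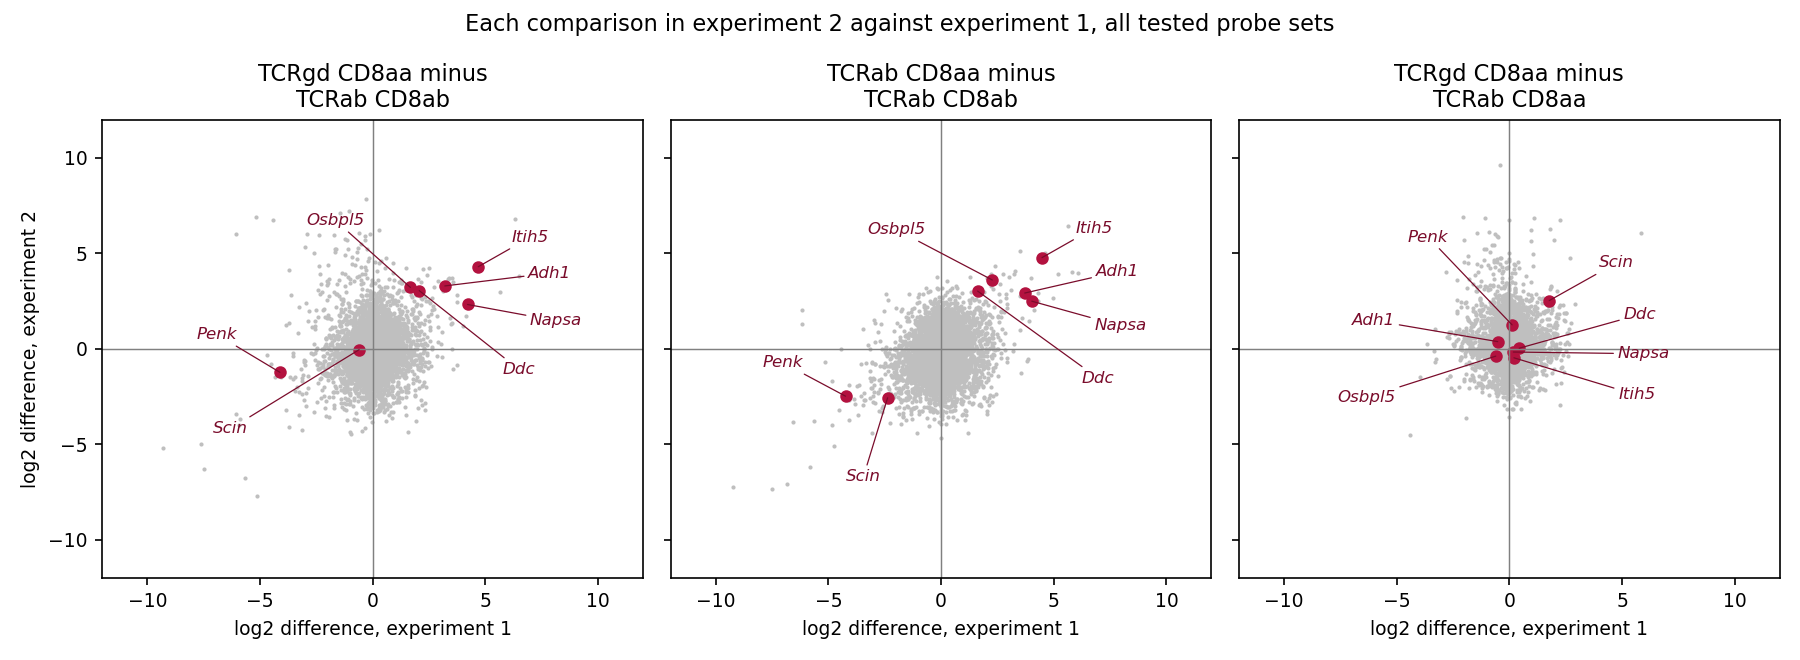
Log2 difference in experiment 2 against that in experiment 1 for all 8299 tested probe sets (grey) and the brightest probe set of the 7 genes (red), 1 panel per comparison. Against TCRab CD8ab, 5 genes lie at the upper right and Penk at the lower left, and Scin is near the centre for TCRgd CD8aa and at the lower left for TCRab CD8aa. In the comparison of the CD8aa subsets, Scin stands at the upper right and the other members lie near the centre.

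The experiments, each with its own pool of mice, were also compared, a difference separate from those between subsets. The choice of members can still favour a small spread of subset differences between experiments, on which the error of this test rests. In limma with subset as a term, 3 of 7 members passed an adjusted p of 0.05, and 34.1% of all tested probe sets did. Each experiment was a single pool, and its 3 subsets served as the replicates. The SE and adjusted p therefore measure how alike the subsets of a pool shifted, and not the spread between pools. Osbpl5 rose in experiment 2 by 1.58 ± 0.32 (SE; adjusted p = 0.00518), and Scin rose by 1.95 ± 0.25 (adjusted p = 0.000654), each on 3 of 3 subsets. Adh1 fell in experiment 2, by 1.56 ± 0.28 (adjusted p = 0.0029), also on 3 of 3 subsets. Itih5, Napsa, Ddc and Penk had differences of 0.21 ± 0.27, -0.15 ± 0.37, 0.14 ± 0.30 and -0.63 ± 0.53, with adjusted p of 0.582, 0.788, 0.757 and 0.384. The 3′ to 5′ ratio of beta-actin also separated the experiments, and its part in these differences was not tested.

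Markers of other cell types were set beside the 5 genes. With the block, 1 of 23 tested epithelial markers was called in each comparison of a CD8aa subset with TCRab CD8ab, where 0.554% of all tested probe sets were called for TCRgd CD8aa and 0.819% for TCRab CD8aa, and 0 without the block. This was Epcam, a cell adhesion molecule of epithelial cells, with 350.8 and 693.8 in TCRgd CD8aa, 617 and 517.2 in TCRab CD8aa, and 75.9 and 38.1 in TCRab CD8ab. It rose by 3.20 ± 0.50 in TCRgd CD8aa (adjusted p = 0.028) and by 3.39 ± 0.50 in TCRab CD8aa (adjusted p = 0.0185), higher in both experiments. Over the 23 tested epithelial markers, the median difference from TCRab CD8ab was 1.65 in TCRgd CD8aa and -0.19 in TCRab CD8aa. In limma with the block, 6 of them in TCRgd CD8aa and 2 in TCRab CD8aa had an unadjusted p under 0.05. Over all 8299 tested probe sets, 681 and 837 did. Fabp1, a defining enterocyte gene, differed by 1.83 ± 1.23 in TCRgd CD8aa and by -0.28 ± 1.23 in TCRab CD8aa. The sum of all 31 epithelial markers was higher in TCRab CD8aa than in TCRab CD8ab in experiment 1 (20311 against 11975) and lower in experiment 2 (7635 against 8399). Most of these sums was Dgat1, an enzyme of fat synthesis, with 13422 and 4716 in TCRab CD8aa and 7045 and 5578 in TCRab CD8ab. Of the 31 markers, 4 and 7 were at the floor in TCRab CD8aa, against 5 and 6 in TCRab CD8ab. The part of epithelial RNA in the differences of the 5 genes was not tested.

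The other marker lists gave few calls. Of 8 tested B and plasma cell markers 1 was called, Ighm, which rose in TCRab CD8aa by 1.85 ± 0.31 (adjusted p = 0.0288), with signals of 3401 and 647.9 in TCRgd CD8aa, 3905 and 1105 in TCRab CD8aa, and 1265 and 261.8 in TCRab CD8ab. The sums of the 10 markers of this list were 6453 and 7833, 6324 and 3385, and 4638 and 2920 in the same order of subsets. The sums of 10 mast cell and basophil markers were 3183 and 1911 in TCRgd CD8aa, 3147 and 1715 in TCRab CD8aa, and 1654 and 740 in TCRab CD8ab, most of it Kit (2808 and 1026, 2630 and 1434, and 1326 and 395). The defining mast cell protease Mcpt4 was under the floor on 5 of 6 arrays. Those of 13 myeloid and dendritic cell markers were 3182 and 2872, 2705 and 1267, and 1765 and 1962, most of it Itgax, an integrin of dendritic cells. Limma with the block called 0 of 5 enteroendocrine, 6 goblet and Paneth cell, 5 mast cell, 9 myeloid, 8 stromal and 1 erythrocyte markers tested. Per list and comparison, 0 to 2 had an unadjusted p under 0.05. Of all 8299 tested probe sets, 681 in TCRgd CD8aa and 837 in TCRab CD8aa did against TCRab CD8ab, and 172 between the CD8aa subsets. Sums of these lists moved in part with the 5 genes, and their part in the differences was not tested.

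For each member, other genes of its pathway were read beside it. Limma with the block called 0 tested genes in each of 7 pathway lists in all 3 comparisons, with 0 to 2 genes per list at an unadjusted p under 0.05. Of all 8299 tested probe sets, 681 in TCRgd CD8aa and 837 in TCRab CD8aa reached this against TCRab CD8ab, and 172 between the CD8aa subsets. Without the block 0 genes of these lists were called, with 0 or 1 at an unadjusted p under 0.05. The medians of these lists against TCRab CD8ab lay between -0.007 and 0.145 in TCRgd CD8aa and between -0.166 and 0.072 in TCRab CD8aa, beside the medians over all probe sets of -0.06 and -0.08.

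Among hyaluronan and inter-alpha-trypsin inhibitor genes, beside Itih5, 5 of 16 were bright enough to test. The liver-secreted heavy chains Itih1, Itih2 and Itih3 had signals of 5.3 to 39.5 on all arrays, near the floor. The hyaluronan receptor Cd44 had 70.3 and 44.2 in TCRgd CD8aa and 56.6 and 21.3 in TCRab CD8aa, against 309.1 and 115.4 in TCRab CD8ab. All 4 CD8aa arrays were below both CD8ab arrays, the reverse of Itih5, with adjusted p of 0.409 and 0.139 for the differences of -1.76 ± 0.59 and -2.44 ± 0.59. Hyal2, a hyaluronidase, differed by -0.69 ± 0.69 and -1.0 ± 0.69.

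Among 13 tested aspartic and lysosomal proteases beside Napsa, the brightest were Ctsw, Ctss and Ctsc, cathepsins of lytic and antigen-processing compartments. Ctsc, the activator of granzymes, had 4267 and 5039 in TCRgd CD8aa and 4019 and 5575 in TCRab CD8aa, against 2751 and 2816 in TCRab CD8ab. Its differences of 0.74 ± 0.28 and 0.77 ± 0.28 had adjusted p of 0.516 and 0.423. The other aspartic proteases, Ctsd and Ctse, differed by -0.19 ± 0.31 and -0.37 ± 0.34 in TCRgd CD8aa, and by -0.01 ± 0.31 and -0.50 ± 0.34 in TCRab CD8aa.

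Among 10 tested genes of alcohol and retinol metabolism, Adh5, the class III alcohol dehydrogenase present in nearly all cells, had 3920 and 1594 in TCRgd CD8aa, 4451 and 1551 in TCRab CD8aa, and 5098 and 719.9 in TCRab CD8ab. Its signal too was lower on every array of experiment 2, and its subsets overlapped. Aldh1a1, a retinaldehyde dehydrogenase that acts after Adh1 in making retinoic acid, had 47.6 and 6153 in TCRgd CD8aa, 103.7 and 165.1 in TCRab CD8aa, and 152.3 and 181.4 in TCRab CD8ab. It was bright only on the array rich in epithelial markers. Aldh1a2, the enzyme of this step in gut dendritic cells, was at 3.3 to 13.5, under the floor on all arrays. Dhrs3, which reduces retinaldehyde back to retinol, had 26.8 and 28.1 in TCRgd CD8aa and 12.4 and 30.8 in TCRab CD8aa, against 127.5 and 127.3 in TCRab CD8ab (adjusted p of 0.409 and 0.252).

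Among 10 tested genes of monoamine metabolism, the enzymes that act before Ddc were dim. Th, tyrosine hydroxylase, had signals of 33.2 to 111.5 with no order by subset, and Tph1, tryptophan hydroxylase of the gut, had 0.5 to 42.9. Gch1, Pts and Qdpr, which make or renew the cofactor tetrahydrobiopterin, were measured on all arrays. Gch1 had 371.5 and 205.3 in TCRgd CD8aa and 243.4 and 177.7 in TCRab CD8aa, against 565 and 368.9 in TCRab CD8ab (adjusted p of 0.678 and 0.338). Maoa, which breaks monoamines down, was 46.1 and 1595 in TCRgd CD8aa and 58 to 86.5 on the other 4 arrays.

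Among 12 tested genes of sterol transport beside Osbpl5, the relatives Osbpl9 and Osbpl11 differed by 0.77 ± 0.46 and 0.35 ± 0.46 in TCRgd CD8aa and by 1.14 ± 0.46 and 0.35 ± 0.46 in TCRab CD8aa. Osbp, the founding member of the family, differed by -0.61 ± 0.36 and -0.08 ± 0.36. None passed.

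Of 15 opioid system genes 6 were bright enough to test. Furin, a general proprotein convertase, had signals of 1417 to 1906 in no order by subset, with differences of 0.14 ± 0.29 and 0.18 ± 0.29. The neuroendocrine convertase Pcsk1 was at 16.7 to 74.4. The carboxypeptidase Cpe, which trims enkephalin precursors in neuroendocrine cells, was at 1.5 and 1070 in TCRgd CD8aa and at 9.1 to 29.8 on the other arrays, so it was bright on the array rich in enteroendocrine markers and not on those where Penk was high. The opioid receptors Oprd1, Oprm1 and Oprk1 had signals of 2.6 to 50.

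Among 21 tested genes of the gelsolin family and of actin turnover, Capg, a capping protein related to scinderin, was also low in TCRab CD8aa, with 519.2 and 107.3 in TCRgd CD8aa, 369.4 and 16.2 in TCRab CD8aa, and 938.2 and 173.3 in TCRab CD8ab. Its difference of -2.38 ± 0.57 in TCRab CD8aa had an adjusted p of 0.139. Gsn, gelsolin itself, had the other order, with 668.6 and 106.9, 569.5 and 87.3, and 457.8 and 25.6 in the same order of subsets. The most abundant genes of the list, Tmod3, Tmsb4x and Actg1, differed by 0.04, -0.47 and 0.19 in TCRgd CD8aa and by -0.21, -0.22 and -0.11 in TCRab CD8aa.

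The likeness of patterns was measured as Pearson's r of log2 signal over the 6 arrays after the mean of each experiment was taken out. It rests on 6 arrays that share pools and is given as a description. The 5 genes that were high in the CD8aa subsets correlated with each other at 0.856 (Napsa and Osbpl5) to 0.983 (Itih5 and Adh1), which the choice of members favours. Penk ran opposite to them, at -0.791 to -0.973, and correlated with Scin at 0.716. Of 6108 other genes, 38 had a higher r with Itih5 than Adh1 did.

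By the same measure, the genes most like Itih5 were Ptpn11, Irf8 and Tiprl (r = 0.998, 0.998 and 0.997). Irf8, a transcription factor of the interferon regulatory family, had 2967 and 1649 in TCRgd CD8aa and 3044 and 2278 in TCRab CD8aa, against 513.2 and 310.1 in TCRab CD8ab. Those most like Napsa were Fcer1g, Mcam and Tmem38b (r = 0.9995, 0.9986 and 0.9971). Fcer1g, the signalling chain of Fc receptors, had 1365 and 520 in TCRgd CD8aa and 1030 and 594.2 in TCRab CD8aa, against 12.8 and 37.6 in TCRab CD8ab. Adh1 was followed by Son, Max and Fscn1, Ddc by Rhoq, Colgalt1 and Mcoln2, and Osbpl5 by Rreb1, Pde8a and Sos2. Several of these had far smaller differences than the member, such as Son at 0.40 in TCRgd CD8aa and 0.41 in TCRab CD8aa, since r takes no account of size.

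The genes most like Penk were Rgs10, Egf and Sit1. Rgs10, a regulator of G protein signalling, had 147 and 314.1 in TCRgd CD8aa and 150.5 and 153 in TCRab CD8aa, against 1191 and 575.2 in TCRab CD8ab. Sit1, an inhibitory adaptor of T cell receptor signalling, had 111.6 and 102.6 in TCRgd CD8aa and 110.7 and 55.7 in TCRab CD8aa, against 894.6 and 158.5 in TCRab CD8ab. Those most like Scin were Kdr, Sgcb and Il9 (r = 0.992, 0.991 and 0.989). Il9, a cytokine, had 48.9 and 108.8 in TCRgd CD8aa, 14.7 and 27.8 in TCRab CD8aa, and 60.7 and 91.7 in TCRab CD8ab. Kdr and Il9 were dim, and like Scin they were lowest in TCRab CD8aa in both experiments.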

How the data were processed

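The authors deposited MAS5 signal intensity, 1 linear value per probe set and array, per the submitters' processing notes, which give no version. Signals were scaled here to a common trimmed mean (500.38 to 500.45 as deposited, leaving out 2% at each end), floored at the 20th percentile (15.3) and converted to log2. Of 12488 probe sets, 66 controls among them, 8299 had at least 2 arrays above the 40th percentile (56.4) and were tested; of the members' 11, 8 passed and 3 did not. Names came from GEO's platform annotation (10833 probe sets with 1 symbol, 396 with several, 1193 with no entry).

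Subsets were compared with limma 3.58.1 (R 4.3.3), using every array, the intensity trend of eBayes and Benjamini-Hochberg adjustment. The main fit had no block; a fit with the replicate number, that is the experiment, as a block was also run, because each pool gave all 3 subsets. Changes between experiments correlated between subsets at 0.603 to 0.713 across probe sets. P-values without the block rest on the spread between experiments, in which pool and RNA integrity cannot be told apart. Those with the block rest on how far differences between subsets varied from experiment to experiment. The code was tested on simulated data. At most 45 values were equal between any 2 arrays. Precision is limited by 2 arrays per subset.

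The members, the 7 pathway lists and the 10 marker lists were chosen with earlier results of these data known. Named from each list are genes called with the block or else the brightest, and others were picked after their values were seen. Likeness names the 3 genes with the highest r. Promoter windows are RefSeq's (GRCm38.p6). Other scalings, floors, filters, variance models and leaving out each array were tried.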

Additional observations from a re-analysis of the deposited data

Results flagged for a closer look

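The TCRgd CD8aa array of experiment 2 carried signal outside the comparisons of members. Its summed signal was 49956 for enterocyte and epithelial markers, 14212 for enteroendocrine markers and 7932 for goblet and Paneth cell markers, or 5.95, 7.76 and 9.51 times that of the TCRab CD8ab array of the same experiment. Where members are set against TCRab CD8ab, values from experiment 1 alone and from the blocked fit without this array stand in the report.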

How the results depend on the processing

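Without the block, limma called 0 probe sets in each comparison of subsets (smallest adjusted p 0.265 or above; 168 in TCRgd CD8aa and 187 in TCRab CD8aa against TCRab CD8ab, and 34 between the CD8aa subsets, had an unadjusted p under 0.05). With the replicate block the counts were 46, 68 and 2 in the same order, and 3, 6 and 1 with the block and no intensity trend. With the block and no filter they were 0. Leaving out 1 array gave 0 without the block and, with it, 33 to 192, 22 to 198 and 1 to 112, the highest without TCRgd CD8aa replicate 1, TCRab CD8ab replicate 1 and TCRgd CD8aa replicate 1, on 1 residual degree of freedom. The 2827 probe sets called between experiments became 506 with no filter and 1890 to 3013 with 1 array left out.

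The replicate block gave the same differences for members (Scin 2.14, adjusted p 0.111 between the CD8aa subsets) and ended or made no call for a member between these subsets; the calls it made among listed genes stand in the report. The number of members not overlapping stayed at 5 under the other scalings and floors. Under 12 settings that keep all arrays of the subsets compared, 21 member differences gave 252 values. Of these, 249 moved by less than 1 SD or kept their call, 3 moved more and 0 changed sign. With 1 array left out, the sign turned in 18 of 252, of which 16 were between the CD8aa subsets. The other two were Scin in TCRgd CD8aa against TCRab CD8ab (-0.33 with all arrays), at 0.87 without TCRgd CD8aa replicate 1 and 0.59 without TCRab CD8ab replicate 2, both without the block. The differences of TCRgd CD8aa from TCRab CD8aa then ranged from -0.40 to 0.13 for Itih5, -0.56 to 0.56 for Napsa, -1.13 to 0.99 for Adh1, -0.22 to 0.68 for Ddc, -1.58 to 0.59 for Osbpl5 and -0.32 to 1.69 for Penk, and from 0.95 to 3.34 for Scin. Leaving out an array without the block leaves the experiments unequal between subsets. The causes of the changes in counts were not tested.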
